A study of Mus musculus with 2 samples.

Results

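The detoxification enzymes of the lung were compared between 2 pools of mice, one with Foxf1 targeted in endothelial cells and one control. The members were all genes whose symbols marked them as glutathione S-transferases of the alpha, mu, omega, pi and theta classes (GST), UDP-glucuronosyltransferases (UGT), cytosolic sulfotransferases (SULT), aldehyde dehydrogenases (ALDH) or flavin-containing monooxygenases (FMO). This gave 85 of the 22072 genes listed, namely 19 GST, 21 UGT, 18 SULT, 20 ALDH and 7 FMO genes. The KO mice had the genotype Pdgfb-iCreER / FoxF1 fl/fl, in which the Pdgfb promoter drives a tamoxifen-inducible Cre in endothelium. The control mice were Foxf1 fl/fl without Cre, so that both groups carried the floxed alleles and effects of Cre cannot be told apart from those of Foxf1 loss. The strain was C57/BL6 for both. Lungs of several mice were pooled into 1 library per genotype, while the labels say nothing of ages, sexes, the number of mice or the tamoxifen schedule.

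These enzymes act in successive steps on foreign compounds and on reactive molecules made by the body. FMO enzymes add oxygen to nitrogen and sulfur atoms, and ALDH enzymes turn aldehydes into acids, including retinaldehyde into retinoic acid. GST, UGT and SULT enzymes attach glutathione, glucuronic acid or sulfate. In the mouse lung much of this chemistry takes place in club cells of the airway epithelium, and the liver is the body's main site for most UGT2B and SULT2A enzymes.

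The values are FPKM, fragments scaled to transcript length and library total, summed over the transcripts of a gene. About 10.6 M reads fell on transcripts in the KO library and 13.6 M in the control library, and 0.45% of all FPKM belonged to the members in KO lungs against 0.70% in control lungs. Foxf1, listed as Foxf1a, had 15.7 FPKM in the KO pool and 72.1 in the control pool, 4.59-fold lower (3.97 to 5.32). Each fold is followed by its 95% counting interval, computed from approximate read numbers. Such intervals cover counting error alone and leave out all variation between mice and pools, since neither group has a replicate, and no p-value was computed. The lung identity of both pools was clear from Sftpc, the surfactant protein C gene, at 13793 FPKM in the KO pool and 15925 in the control pool. Bulk lung RNA cannot tell fewer cells of a type apart from less RNA per cell.

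The abundant members were mostly lower in KO lungs and few were higher. Of 85 members, 43 had a mean of 1 FPKM or more in the 2 pools, and 42 were under this floor, 10 of them listed at 0 in both. On the log2(FPKM + 1) scale, which understates differences of low genes, 11 of the 43 (25.6%) were at least 1.5-fold lower in the KO pool, whereas 4.63% of all 12929 genes over the floor were lower by that much. At least 1.5-fold higher were 2 members (4.65%), against 9.41% of all genes. Summing members that share over 10% of their read-length sequence stretches left 39 units, of which 1 was higher and 10 were lower. With the KO values rescaled to a median log2 ratio of 0 over all genes the members split into 0 higher and 12 lower (27.9%). Under that rescaling 8.12% of all genes were higher and 5.55% lower. The median log2 ratio was -0.19 for the members and 0.05 for all genes, and single members ranged from -1.09 to 0.62. By the counting interval alone, 19 members were lower, 7 were higher and 17 had an interval that included equality. This count was not made over all genes, so it has no background share and is not read as a trait of the members.

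**Figure D1:**
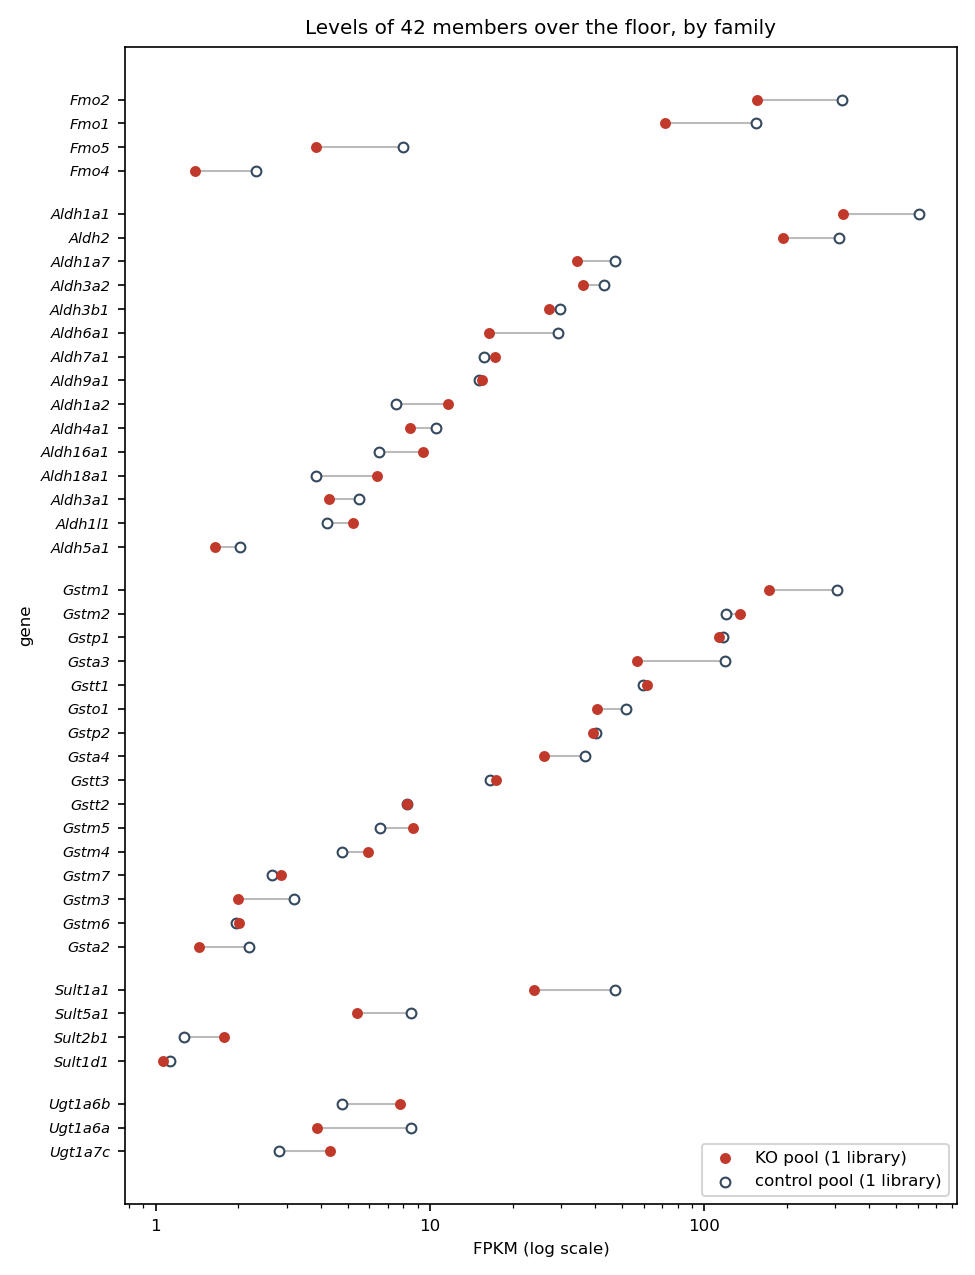
FPKM on a log axis of 42 members with a mean of 1 FPKM or more, with the KO pool as filled and the control pool as open points (1 library each), grouped by family and ordered by mean. The FMO genes plotted, and the most abundant ALDH, GST and SULT genes, Aldh1a1, Gstm1 and Sult1a1, lie further left in the KO pool.

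Differences past 1.5-fold were most frequent among the abundant members. Among the 17 members with a mean of 20 FPKM or more, 8 (47.1%) were at least 1.5-fold lower in KO lungs and 0 were higher, against 5.26% lower and 8.62% higher among the 3423 genes at that level. Among 15 members at 5 to 20 FPKM, 3 (20%) were lower and 2 (13.3%) were higher, against 3.74% lower and 7.94% higher among all genes at that level. Among 11 members at 1 to 5 FPKM, 0 passed 1.5-fold in either direction, against 5.39% lower and 12.3% higher among all genes there. The log2(FPKM + 1) scale shrinks differences most in this last range, where the counts behind a value are also smallest. These level ranges were set after the values were known.

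**Figure D2:**
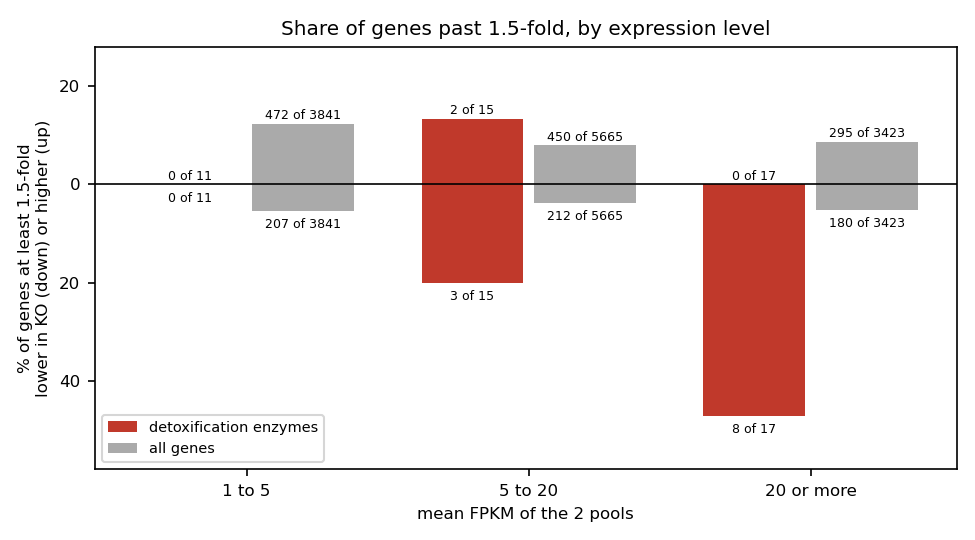
Share of genes at least 1.5-fold higher (up) or lower (down) in the KO pool, in percent, for the detoxification enzymes and for all genes in 3 ranges of mean FPKM, with counts beside the bars. The lower share of the members is 20% at 5 to 20 FPKM and 47.1% at 20 or more, while that of all genes stays between 3.74% and 5.39%.

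Summed over all their members, 4 of the 5 families were lower in the KO pool. The FMO genes summed to 243 FPKM in KO lungs and 505 in control lungs, 2.08-fold lower (2.03 to 2.13). The SULT genes summed to 33.4 and 58.5 FPKM in KO and control lungs, 1.75-fold lower (1.59 to 1.93). The ALDH genes, the largest family by level, stood at 707 FPKM in the KO pool and 1138 in the control pool, 1.61-fold lower (1.58 to 1.64). The families differed in how many members carried the sum, which the following sections describe. For the GST genes the sums were 694 FPKM in KO lungs and 895 in control lungs, 1.29-fold lower (1.26 to 1.32). The UGT genes reached 18.1 FPKM in KO lungs and 17.0 in control lungs, with a counting interval that included equality (0.962 to 1.19-fold).

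**Figure D3:**
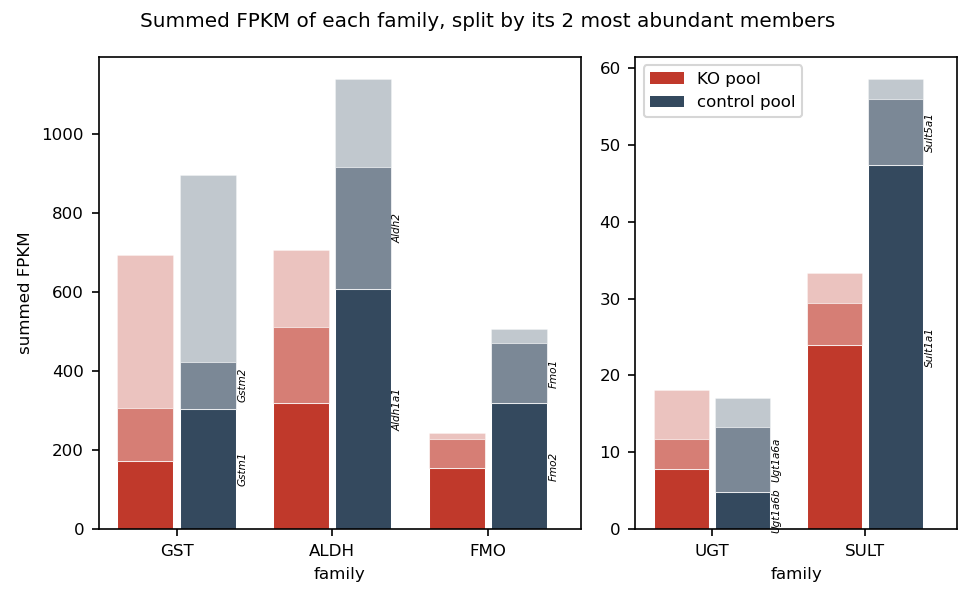
Summed FPKM of each family in the KO pool (red, left bars) and the control pool (dark, right bars), split into the 2 members with the highest mean (darker shades, from the bottom up) and the rest (palest), with UGT and SULT on an axis of their own. The FMO bar of the KO pool is 243 high against 505 for the control pool, and the UGT bars are 18.1 and 17.0.

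The FMO genes stood out by the evenness of their difference. Fmo2, which encodes the main pulmonary FMO of most mammals, had 155 FPKM in the KO pool and 318 in the control pool, 2.05-fold lower (1.99 to 2.10). Fmo1 had 71.8 FPKM in KO lungs and 154 in control lungs, 2.14-fold lower (2.04 to 2.25). Both genes lie in a cluster on chromosome 1, where Fmo1 spans 164759692 to 164796679 and Fmo2 spans 164805178 to 164828843 (mm9), with Fmo4 on one side and Fmo6 on the other. Fmo5, on chromosome 3 from 97432727 to 97459210 (mm9) and so outside the cluster, had 3.85 FPKM in KO lungs against 7.94 in control lungs and was 2.06-fold lower (1.79 to 2.39). Fmo4 had 1.39 FPKM in the KO pool and 2.32 in the control pool, 1.68-fold lower (1.09 to 2.64), and passed 1.5-fold with a pseudocount of 0.1 but not of 1. Fmo6 and Fmo9 were hardly detected, Fmo6 with 1 read in each pool and Fmo9 listed at 0 in both.

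Of the 5 FMO genes over the floor, 4 (80%) were thus at least 1.5-fold lower and the median log2 ratio was -1.03. Among all genes over the floor 4.63% were lower by that much, and the median was 0.05. The makeup of the family was nearly the same in both pools: Fmo2 made up 63.8% of FMO FPKM in KO lungs and 62.9% in control lungs, and Fmo1 29.5% and 30.4%. Among the 3 transcripts of Fmo5 the division was unstable, with the transcript of 5186 bases at 2.84 FPKM in KO lungs and 0.586 in control lungs while that of 5202 bases had 0.000462 and 3.54 FPKM and that of 5285 bases 1.01 and 3.82 FPKM in KO and control lungs, so only the sum is read here.

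**Figure D4:**
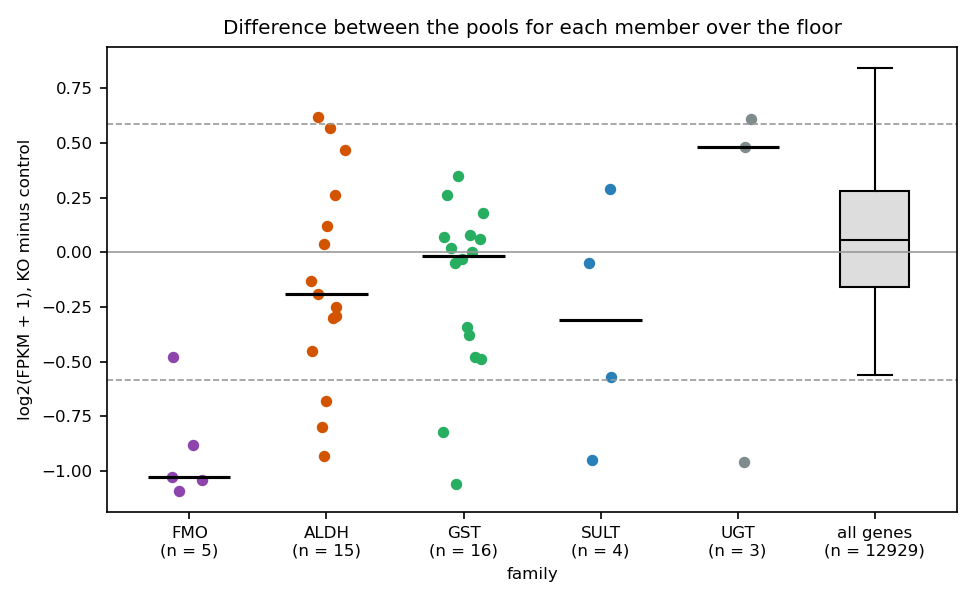
Difference between the KO and the control pool in log2(FPKM + 1) for each member over the floor (points) with the median of the family (black bar), beside all 12929 genes (box with quartiles, whiskers at the 5th and 95th percentiles). Dashed lines mark 1.5-fold. The FMO genes lie between -1.09 and -0.48, and the GST genes between -1.06 and 0.35 with a median of -0.02.

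The promoters of members that were at least 1.5-fold lower in KO lungs are shown where they held a match to a motif of a regulator linked to this biology. The sequences are RefSeq's (GRCm38.p6, a later build than the mm9 of the expression values), 250 bases up to the annotated start, 5' to 3' along the gene, with the match in capitals. Fmo2 held a forkhead motif (GTAAACA), Gsta3 an antioxidant response element (TGACNNNGC) and Gstm1 the core of the xenobiotic response element (GCGTG). Sult1a1 held a match to TTANGTAA, a loose form of the D-box, the motif of clock-controlled PAR bZIP factors. The loose form allows any base at N, here G, so the match need not be a D-box proper.
Fmo2 promoter, chr1:162898494-162898743, minus strand: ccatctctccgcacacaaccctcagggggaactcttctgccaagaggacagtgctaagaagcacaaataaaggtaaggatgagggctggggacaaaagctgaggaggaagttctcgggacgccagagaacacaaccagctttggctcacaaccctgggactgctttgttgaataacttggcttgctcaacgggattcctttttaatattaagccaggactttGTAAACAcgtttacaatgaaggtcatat
Gsta3 promoter, chr1:21240335-21240584, plus strand: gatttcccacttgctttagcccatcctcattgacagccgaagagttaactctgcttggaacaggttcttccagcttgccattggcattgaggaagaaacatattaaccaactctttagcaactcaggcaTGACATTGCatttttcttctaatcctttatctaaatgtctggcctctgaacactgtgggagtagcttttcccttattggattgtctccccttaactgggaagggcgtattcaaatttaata
Sult1a1 promoter, chr7:126676419-126676668, minus strand: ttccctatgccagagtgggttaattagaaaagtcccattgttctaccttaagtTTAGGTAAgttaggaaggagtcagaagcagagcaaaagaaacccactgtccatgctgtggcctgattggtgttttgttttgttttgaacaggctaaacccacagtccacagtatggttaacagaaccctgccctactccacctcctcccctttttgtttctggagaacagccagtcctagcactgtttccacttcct
Gstm1 promoter, chr3:108017974-108018223, minus strand: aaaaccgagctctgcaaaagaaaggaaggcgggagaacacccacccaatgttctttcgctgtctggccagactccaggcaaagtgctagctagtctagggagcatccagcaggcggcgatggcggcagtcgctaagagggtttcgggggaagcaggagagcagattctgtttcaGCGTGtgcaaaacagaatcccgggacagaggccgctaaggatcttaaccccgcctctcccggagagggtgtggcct
The matches began at position -28 from the start in Fmo2, -121 in Gsta3, -197 in Sult1a1 and -76 in Gstm1. All 4 motifs were searched on both strands of windows that reach 50 bases past the start, and each window shown held 1 match. Aldh6a1 also held GCGTG, at position 9 past the start, which is not printed. A further window of Fmo2, chr1:162898759-162899008, belongs to another annotated start and held no match. The searched motifs can overlap, as TGACNNNGC and GCGTG on the other strand do in the window of Gstm5. Entries existed for 69 of the 85 members (81 windows), and for 8 of the 11 lower members (12 windows).

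None of these motifs was frequent in the windows of the lower members. The forkhead motif was in 1 of their 12 windows (8.33%), against 3.65% of 32851 windows of all genes. The loose form of the D-box was also in 1 (8.33%, against 2.32%) and the antioxidant response element in 1 (8.33%, against 12.4%). The xenobiotic response element core was in 3 (25%, against 32.4%), of which the Gstm1 pair hold the same site. In the 33 windows of members over the floor that were not lower, the shares in the same order were 3.03%, 0%, 12.1% and 33.3%. A match describes letters and not binding.

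Among the aldehyde dehydrogenases the cytosolic retinaldehyde enzyme gene Aldh1a1 had the highest level of all members. It had 319 FPKM in the KO pool and 607 in the control pool, 1.90-fold lower (1.86 to 1.95), with rank 125 among all genes in KO lungs and rank 36 in control lungs. The gene lies on chromosome 19 from 20676472 to 20717952 (mm9), near its close relative Aldh1a7, which starts at 20767443. Aldh1a7 had 34.3 and 47.1 FPKM in KO and control lungs, 1.37-fold lower (1.27 to 1.49). Aldh1a2, which makes retinoic acid in mesenchyme and mesothelium, went the other way. Its level was 11.6 FPKM in KO lungs and 7.49 in control lungs, 1.54-fold higher (1.32 to 1.82), just inside 1.5-fold on the log2(FPKM + 1) scale. The third retinaldehyde enzyme gene, Aldh1a3, was under the floor at 0.439 and 0.187 FPKM in KO and control lungs. Aldh1a1 alone thus set the sum of the Aldh1a genes, at 365 FPKM in the KO pool and 661 in the control pool.

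Aldh2, whose mitochondrial product clears acetaldehyde, had 193 FPKM in KO lungs and 310 in control lungs, 1.60-fold lower (1.55 to 1.65). Aldh6a1, which acts in the breakdown of valine, had 16.4 and 29.3 FPKM in KO and control lungs and was 1.79-fold lower (1.64 to 1.96). With Aldh1a1 these were the 3 ALDH genes past 1.5-fold in that direction. The genes of proline metabolism pointed in opposite directions. Aldh18a1, needed for proline synthesis, had 6.40 FPKM in KO lungs and 3.83 in control lungs and was 1.67-fold higher (1.40 to 2.0), while Aldh4a1, which acts in proline breakdown, had 8.44 and 10.5 FPKM, 1.24-fold lower (1.09 to 1.42). Aldh18a1 was within 1.5-fold when the KO values were rescaled to an unchanged median gene.

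Of the enzymes for lipid-derived aldehydes, Aldh3a2, the fatty aldehyde dehydrogenase gene, had 36.2 FPKM in the KO pool and 43.1 in the control pool, 1.19-fold lower (1.12 to 1.27). Aldh3b1 had 27.1 and 29.8 FPKM in KO and control lungs, and Aldh3a1, known for its abundance in the cornea, had 4.27 and 5.49, both with counting intervals that included equality. The folate enzyme gene Aldh1l1 had 5.23 FPKM in KO lungs against 4.20 in control lungs, 1.25-fold higher (1.03 to 1.52), and Aldh16a1 had 9.40 against 6.5, 1.45-fold higher (1.23 to 1.70). A further 3 genes, unlike Aldh6a1, Aldh4a1 and Aldh18a1, differed by less than counting error. They were Aldh7a1, of lysine breakdown, at 17.2 and 15.7 FPKM in KO and control lungs, Aldh9a1, of carnitine synthesis, at 15.5 and 15.1 FPKM, and the GABA-pathway gene Aldh5a1 at 1.65 and 2.03 FPKM. Aldh1l2, Aldh1b1, Aldh3b2 and Aldh8a1 were under the floor with 0.462 FPKM or less in either pool.

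The glutathione S-transferases divided by class. The alpha class was lower as a whole, with a sum of 84.3 FPKM in KO lungs and 159 in control lungs, 1.88-fold lower (1.77 to 2.01). Gsta3, its most abundant gene, had 56.6 and 119 FPKM in KO and control lungs, 2.11-fold lower (1.96 to 2.27), and both of its transcripts were lower, at 46.9 and 104 FPKM for the shorter and 9.73 and 14.8 FPKM for the longer one. Gsta4, whose product conjugates the lipid peroxidation product 4-hydroxynonenal, had 26.1 FPKM in the KO pool and 36.8 in the control pool, 1.41-fold lower (1.23 to 1.62). Gsta2 stood at 1.44 and 2.18 FPKM in KO and control lungs, within counting error. It shares 47.0% of its read-length stretches of sequence with Gsta1, which was under the floor at 0.0735 and 0.559 FPKM.

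Within the mu class, 1 gene decided the sum. Gstm1 had 172 FPKM in KO lungs and 304 in control lungs, 1.77-fold lower (1.69 to 1.85), whereas the other 6 Gstm genes together had 157 and 139 FPKM in KO and control lungs, 1.13-fold higher (1.07 to 1.20). On chromosome 3 the mu genes lie in the order Gstm5, Gstm7, Gstm6, Gstm3, Gstm2, Gstm1 and Gstm4, from 107698772 to 107847774 (mm9). Gstm2 had 135 FPKM in the KO pool and 120 in the control pool, 1.13-fold higher (1.06 to 1.20). Gstm4 had 5.93 and 4.79 FPKM in KO and control lungs, and Gstm5 had 8.67 and 6.59. Their counting intervals included equality, as did those of Gstm6 (2.01 and 1.96 FPKM in KO and control lungs) and Gstm7 (2.86 and 2.66 FPKM). Gstm3 was the other lower mu gene, with 1.99 FPKM in KO lungs and 3.20 in control lungs, 1.60-fold lower (1.03 to 2.56) and within 1.5-fold on the log2(FPKM + 1) scale. It shares 10.7% of its read-length stretches with Gstm1, so part of its reads cannot be assigned with certainty.

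The pi and theta classes differed by less than counting error. Gstp1, whose product is a main GST of epithelia, had 113 FPKM in the KO pool and 117 in the control pool, and Gstp2 had 39.1 and 40.1 FPKM. These genes share 63.0% of the read-length stretches of Gstp1, but their sum of 152 and 157 FPKM in KO and control lungs also differed by less than counting error (0.963 to 1.10-fold lower). Gstt1 had 62 and 59.6 FPKM in KO and control lungs, Gstt3 had 17.4 and 16.6, and Gstt2 had 8.21 and 8.24. The directions of Gstt1 and Gstt3, which were higher by 1.05-fold or less, turned under other scalings. Gsto1, an omega-class gene whose product reduces dehydroascorbate, had 40.5 FPKM in KO lungs and 51.6 in control lungs, 1.27-fold lower (1.15 to 1.41). Gsto2 (0.721 and 0.222 FPKM in KO and control lungs) and Gstt4 (0 and 0.0652 FPKM) were under the floor. Of 16 GST genes over the floor, 2 (12.5%), Gstm1 and Gsta3, were at least 1.5-fold lower and 0 were higher, with a median log2 ratio of -0.02. Among all genes 4.63% were lower and 9.41% higher, with a median of 0.05.

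Of the sulfotransferases, Sult1a1 carried most of the family. This gene for the phenol sulfotransferase had 24.0 FPKM in KO lungs and 47.4 in control lungs, 1.97-fold lower (1.76 to 2.21), and made up 71.9% and 81.0% of SULT FPKM in KO and control lungs. It lies on chromosome 7 from 133816384 to 133819871 (mm9). Sult5a1 had 5.40 and 8.52 FPKM in KO and control lungs, 1.58-fold lower (1.20 to 2.07), and passed 1.5-fold on the log2 scale under 2 rescalings and with a pseudocount of 0.1. Sult2b1, a cholesterol sulfotransferase gene, had 1.78 FPKM in the KO pool and 1.27 in the control pool, and Sult1d1 had 1.06 and 1.13, neither beyond counting error. The estrogen sulfotransferase gene Sult1e1, along with Sult1c1, Sult3a1, Sult2a3 and Sult2a7, was listed at 0 in both pools. Sult6b1, Sult4a1, Sult1c2 and Sult1b1 had at most about 5 reads in either pool.

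Among the glucuronosyltransferases, the sum of the Ugt1a locus was nearly equal in both pools, although its single members differed. The Ugt1a genes on chromosome 1 join separate first exons to a common set of later exons, so their reads are largely shared. Ugt1a6a had 3.88 FPKM in KO lungs and 8.49 in control lungs, 2.19-fold lower (1.83 to 2.62), Ugt1a6b had 7.79 and 4.78 FPKM, 1.63-fold higher (1.33 to 1.98), and Ugt1a7c had 4.30 and 2.81 FPKM, 1.53-fold higher (1.23 to 1.90). Of the read-length stretches of Ugt1a6a, 81.5% are also found in Ugt1a6b. Summed over its 8 genes, the locus had 16.5 FPKM in the KO pool and 16.4 in the control pool, 1.0-fold (0.899 to 1.12). With so much shared sequence, the 1 UGT call in each direction is uncertain. Ugt1a1, whose product conjugates bilirubin, had 0.442 FPKM in KO lungs and 0.302 in control lungs, and Ugt1a2, Ugt1a5, Ugt1a9 and Ugt1a10 had at most about 3 reads in either pool. Ugt8a, which makes galactosylceramide, had 0.153 and 0.280 FPKM in KO and control lungs. Ugt2a3 had about 1 read in each pool, and Ugt2a1, Ugt2a2, Ugt3a1 and Ugt3a2 were listed at 0 in both.

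Low transcripts typical of liver were more frequent in the KO pool. The 7 Ugt2b genes, all under the floor, summed to 1.46 FPKM in KO lungs and 0.241 in control lungs, from about 44 and 10 reads, 6.06-fold higher (2.85 to 12.9). Ugt2b5 had 0.431 FPKM in KO lungs and 0.0345 in control lungs, and Ugt2b1 had 0.336 and 0.0528. The 7 Sult2a genes, which act on bile acids and steroids, summed to 0.780 and 0.0667 FPKM in KO and control lungs, from about 10 reads and 1 read, a ratio of 11.7 (1.66 to 505). Markers of hepatocytes were higher as well. Of 18 such markers 14 were over the floor, and 13 of them (92.9%) were at least 1.5-fold higher in the KO pool, against 9.41% of all genes. Their median log2 ratio was 1.41, with sums of 242 FPKM in KO and 140 in control lungs. Alb, the albumin gene, had 49.6 FPKM in KO lungs and 8.98 in control lungs, 5.52-fold higher (4.87 to 6.27), and the liver cytochrome gene Cyp2c29 had 2.35 and 0.144. Trf, also expressed outside the liver, made up most of both sums at 140 and 119 FPKM. The part of such transcripts in the low UGT and SULT values was not tested.

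Part of the other oxidoreductases and hydrolases shared the direction of the FMO genes and Aldh1a1. This list was chosen by hand with earlier results of these data known, so its shares describe the genes listed and not all such enzymes. Of 33 genes on it over the floor, 11 (33.3%) were at least 1.5-fold lower in the KO pool, 20 were within 1.5-fold and 2 (6.06%) were higher. Among all genes 4.63% were lower and 9.41% higher. The list had a median log2 ratio of -0.33 and sums of 3179 FPKM in KO lungs and 5945 in control lungs. Cyp4b1, a lung cytochrome gene, had 117 FPKM in KO lungs and 360 in control lungs, 3.07-fold lower (2.94 to 3.19). The aldehyde oxidase genes Aox3 (14.6 and 35.8 FPKM in KO and control lungs) and Aox1 (6.61 and 10.7 FPKM) were lower, as was Xdh, the xanthine dehydrogenase gene, at 46.4 and 92.6 FPKM. So were the cytochrome genes Cyp2b10 (83.2 and 197 FPKM in KO and control lungs) and Cyp2a5 (3.75 and 10.1 FPKM), and the carboxylesterase genes Ces1f (2.17 and 4.49 FPKM) and Ces1g (2.04 and 3.66 FPKM). Cbr2 (1461 and 3230 FPKM), Cyp2f2 (641 and 1147 FPKM) and Pon1 (19.1 and 30.7 FPKM), which with Aox3 are also on the club cell list, complete the 11. The aldose reductase genes Akr1b8 (14.8 and 7.80 FPKM) and Akr1b3 (27.7 and 17.5 FPKM) were the higher pair.

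The glutathione supply genes over the floor were mostly within 1.5-fold. Of 22 genes of glutathione synthesis and recycling over the floor, 3 were at least 1.5-fold higher in the KO pool and 0 were lower, with a median log2 ratio of 0.10. The higher share of 13.6% compares with 9.41% of all genes, and the lower share of 0% with 4.63%. The higher genes were Gsr, the glutathione reductase gene (26.3 and 15 FPKM in KO and control lungs), the glutaredoxin gene Glrx (39.7 and 22.1 FPKM) and the peroxidase gene Gpx7 (13.3 and 8.5 FPKM). The abundant peroxidase genes Gpx3 (988 and 683 FPKM) and Gpx4 (218 and 197 FPKM) were within 1.5-fold. Genes of the NRF2 pathway, the main oxidant-responsive regulator of GST genes, had a median log2 ratio of 0.18, with 2 of 25 higher, Abcc4 (5.30 and 1.98 FPKM) and Maff (18.1 and 11.6 FPKM), and 0 lower. The higher share of 8% compares with 9.41% of all genes, and the lower share of 0% with 4.63%. Its most abundant members, the ferritin genes Fth1 (1714 and 1491 FPKM) and Ftl1 (1615 and 1227 FPKM), were within 1.5-fold.

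Among 14 other glutathione transferases and related proteins over the floor, Ptges (9.82 and 5.19 FPKM in KO and control lungs) and Clic1 (150 and 91.7 FPKM) were at least 1.5-fold higher and Clic5 (152 and 230 FPKM) was lower. These shares of 14.3% higher and 7.14% lower compare with 9.41% and 4.63% of all genes. Mgst1, the microsomal transferase gene, had 192 and 225 FPKM in KO and control lungs, and Clic4 had 250 and 290. Of 14 xenobiotic receptors and their partners, 2 (14.3%) were lower and 0 were higher, against 4.63% lower and 9.41% higher among all genes. The lower pair was Ahr, the aryl hydrocarbon receptor gene, at 10.7 FPKM in the KO pool and 19 in the control pool, 1.77-fold lower (1.63 to 1.93), and Por, the electron donor of the cytochromes P450, at 70.2 and 109 FPKM, 1.55-fold lower (1.47 to 1.63). The 2 most abundant of this list, Cyb5 (158 and 182 FPKM) and Cyb5r3 (138 and 135 FPKM), were within 1.5-fold. The nuclear receptor genes Nr1i2 and Nr1i3, which drive many of these enzymes in liver, were under the floor with 0.270 FPKM or less in either pool.

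For the cofactors of conjugation, 1 of 13 genes (7.69%) was lower and 1 (7.69%) higher, with a median log2 ratio of 0.23. Among all genes 4.63% were lower and 9.41% higher. Papss2, which makes the sulfate donor used by SULT enzymes, had 7.22 FPKM in KO lungs and 11.9 in control lungs, 1.65-fold lower (1.45 to 1.89). Papss1, which makes the same donor, was more abundant and went the other way. It had 24.4 FPKM in KO lungs and 18.6 in control lungs, 1.31-fold higher (1.19 to 1.45). Gusb, whose product removes glucuronic acid, had 27.8 and 18.2 FPKM in KO and control lungs, and Ugp2, of UDP-sugar supply, had 31.7 and 27 FPKM. In retinoid metabolism, where Aldh1a1 acts, 2 of 18 genes (11.1%) were lower and 1 (5.56%) was higher, against 4.63% and 9.41% of all genes. Dhrs3, a retinaldehyde reductase gene that retinoic acid induces, had 37.0 FPKM in the KO pool and 64.4 in the control pool, and the retinoic acid hydroxylase gene Cyp26b1 had 0.988 and 2.08. Fabp5, a carrier of fatty acids and retinoic acid that is also abundant in macrophages, had 100 and 49.2 FPKM, and Rarres2 had 112 and 111. Of 13 drug transporters, Abcc4 and Abcg2 (28 and 14.1 FPKM) were higher (15.4%) and 0 were lower, against 9.41% and 4.63% of all genes. The most abundant, Slco2a1 (134 and 133 FPKM) and Slco3a1 (36.1 and 45.2 FPKM), were within 1.5-fold.

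**Figure D5:**
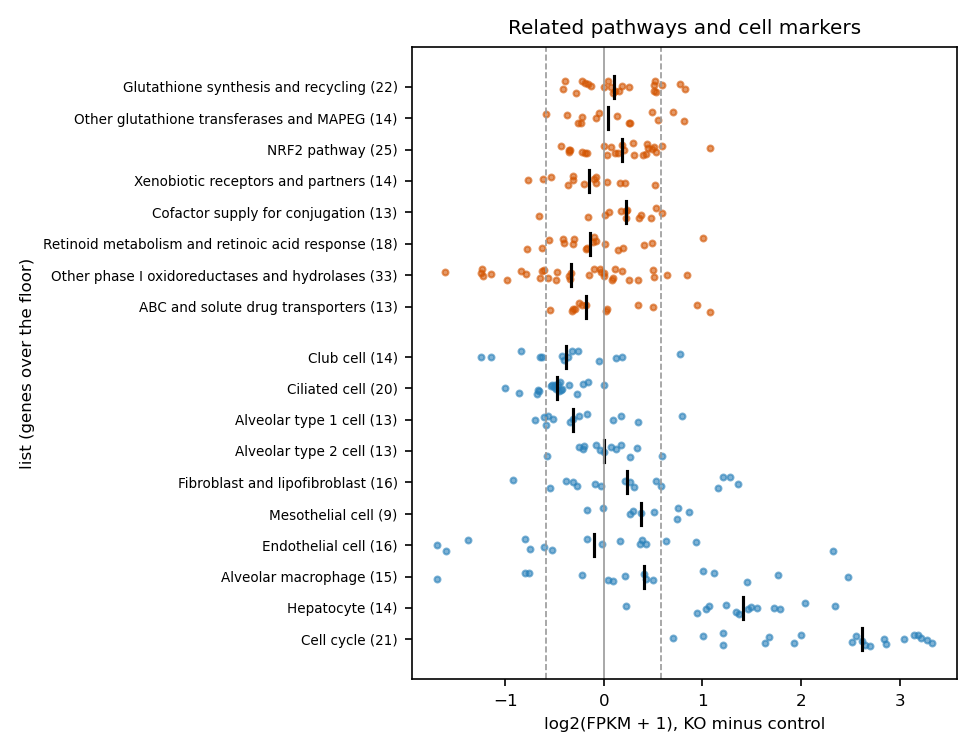
Difference between the KO and the control pool in log2(FPKM + 1) for genes of related pathways (orange) and cell markers (blue), 1 point per gene with a mean of 1 FPKM or more and a black bar at each median, with the number of genes in brackets and dashed lines at 1.5-fold. Medians run from -0.47 for ciliated cell markers to 2.62 for cell cycle genes.

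Part of the airway epithelial markers were lower in the same pool as the enzymes. Of 14 club cell markers over the floor, 5 (35.7%) were at least 1.5-fold lower in the KO pool and 1 (7.14%) was higher. Among all genes 4.63% were lower and 9.41% higher. The club cell markers had a median log2 ratio of -0.38 and a sum of 25682 FPKM in KO lungs and 40514 in control lungs. Their sum, set by the secretoglobin gene Scgb1a1 (22774 and 35265 FPKM in KO and control lungs), was 1.58-fold lower (1.57 to 1.59). Of the 5 lower markers, 4 (Cyp2f2, Cbr2, Aox3 and Pon1) are themselves on the oxidoreductase and hydrolase list above, and Scgb1a1 is the only other. The secretoglobin gene Scgb3a1 was the higher marker, at 3.40 FPKM in KO lungs and 1.58 in control lungs, 2.16-fold higher (1.06 to 4.76), while Scgb3a2 had 267 and 342 FPKM and Hp had 455 and 402 FPKM in KO and control lungs. 1 marker on this list, Sult1d1, is itself a member, with 1.06 and 1.13 FPKM in KO and control lungs. Of 20 ciliated cell markers, 5 (25.0%) were lower and 0 higher, with a median log2 ratio of -0.47 and sums of 479 and 786 FPKM in KO and control lungs. Alveolar type 1 markers had a median of -0.31 (3 of 13 or 23.1% lower, 1 or 7.69% higher, sums of 3502 and 4193 FPKM in KO and control lungs). Alveolar type 2 markers had a median of 0.00 (0 of 13 lower, 1 or 7.69% higher, sums of 22496 and 25042 FPKM). The part of these cells in the enzyme levels was not tested.

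The other marker lists had medians near or above 0. Their counts are read against 9.41% higher and 4.63% lower among all genes. Fibroblast markers had a median log2 ratio of 0.24, with 4 of 16 (25.0%) higher in the KO pool and sums of 3739 and 3151 FPKM in KO and control lungs. Of the 16, 1 (6.25%) was lower, Inmt (626 and 1189 FPKM). Inmt, a methyltransferase gene of lung fibroblasts that also acts on foreign amines, was 1.90-fold lower (1.85 to 1.95), while the collagen gene Col1a1, at 113 and 43.4 FPKM in KO and control lungs, was 2.59-fold higher (2.49 to 2.70). Mesothelial markers had a median of 0.38 (3 of 9 higher, 0 lower, sums of 288 and 196 FPKM in KO and control lungs), and alveolar macrophage markers one of 0.41 (5 of 15 higher, 3 lower, sums of 698 and 620 FPKM). Endothelial markers had a median of -0.10, with 6 of 16 (37.5%) lower, 3 (18.8%) higher and sums of 2047 and 2448 FPKM in KO and control lungs. All 21 cell cycle genes were at least 1.5-fold higher in the KO pool, with sums of 477 and 102 FPKM in KO and control lungs. The part of these lists in the enzyme levels was not tested.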

How the data were processed

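RNA of whole lungs was sequenced as 1 pool of mice per genotype, with groups taken from the labels' genotypes. The authors deposited FPKM for 28107 RefSeq transcripts in each library, per the file headers, along with transcript length and a coverage signal that is proportional to FPKM in each library. The submitters' processing notes name mm9 and, with no role given by the authors, DESeq, and the sources used here do not name an aligner, a quantifier or their versions. FPKM depends on the library total, and reads of near-identical genes may be divided differently in each library.

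FPKM was summed per symbol with Python 3.11.15 and pandas 2.3.3. Log2 ratios used a pseudocount of 1, genes were kept at a mean FPKM of 1 or more, and calls required 1.5-fold on that scale, while the folds printed are ratios of FPKM without a pseudocount. Read numbers were approximated as coverage times length over 46.7 bases per read (KO) or 46.2 (control), the peak among genes with few reads. Exact conditional (Clopper-Pearson) intervals came from scipy 1.17.1, with effective read numbers for sums. The calculation was tested on simulated data. Coordinates are 1-based. Read-length stretches are the 46-base windows of a member's GENCODE transcripts that occur in another member. Members with a mean FPKM of 1 or more are named, except 1 whose own values are not reported here, as are pathway genes past 1.5-fold and the 2 most abundant of each pathway list, while cell markers are given by example. Members and lists were chosen with earlier results of these data known. The alternatives tried changed the pseudocount, floor, scaling, transcript choice, status filter and most abundant member, or summed related members.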

Additional observations from a re-analysis of the deposited data

How the results depend on the processing

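All 11 members at least 1.5-fold lower in KO lungs kept that call under each of the 6 alternatives run on single members (pseudocounts of 0.1 and 3, 2 rescalings, 1 transcript per gene, and transcripts of status OK, which all 94 records of members had). The higher calls were less stable. There were 4 (9.30%) with a pseudocount of 0.1, against 11.8% of all genes, and 0 with a pseudocount of 3, against 6.39%. With the KO values rescaled to an equal median there were 0, against 8.12% of all genes, and after rescaling by the 75th percentile 0, against 7.87%. There was 1 when members that share over 10% of their read-length stretches were summed. This summing also took away 1 lower call, that of Ugt1a6a, which was joined with the other Ugt1a genes, and left 10 lower among 39 units. Summing such members and leaving out the FMO genes were chosen after seeing the data. Without the FMO genes 7 of 38 members (18.4%) were lower, against 4.63% of all genes, and the median of the members was -0.05, against 0.05. With no floor the median was 0.00 for the members and 0.03 for all genes. The KO to control ratio of summed FPKM was 0.775 for GST genes as deposited, 0.743 and 0.735 under the 2 rescalings and 0.884 without Gstm1. For ALDH genes it was 0.622, 0.596 and 0.589, and 0.731 without Aldh1a1, and for FMO genes 0.481, 0.461 and 0.456, and 0.469 without Fmo2. Without their most abundant gene the ratio was 0.845 for SULT genes, against 0.572 with it, and 0.847 for UGT genes, against 1.07. Aldh9a1, Gstm6 and Gstt1 turned from slightly higher to slightly lower under both rescalings, and Gstt3 under the second. No paired analysis was possible because each genotype has 1 library. The alternative that sums members by protein identity was not run. Depth limits the low members: Gsta2, Sult2b1, Gstm6, Gstm3, Fmo4 and Sult1d1 had about 16 to 33 reads in the KO pool.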
